A study of Sus scrofa with 16 samples.

Results

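The genes described here are the translation initiation and elongation factors of the pig pituitary, together with the kinases, binding proteins and enzymes that carry the same gene names. They were taken by symbol, as every gene whose name in the deposited comparison begins with EIF1 to EIF6 or with EEF1 or EEF2, other than EIF4EBP1. All 50 genes with such a name had at least 10 counts in at least 8 pigs, and all 50 were among the 13621 genes tested, out of 25880 genes in the count table. The rule used names and counts, not the comparison of the groups.

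The pituitaries were whole glands of 16 Złotnicka White gilts, 8 with low feed conversion (LFC, labelled low_FCR) and 8 with high feed conversion (HFC, labelled high_FCR), all at day 180 per the labels. The breed is a native Polish one, the animals were unrelated and came from several farms, and they shared housing and feed at 1 test station without any treatment. Feed conversion is the feed eaten for a given gain in weight, so the comparison asks which pituitary genes differ between efficient and inefficient pigs. The groups were thus formed by a trait and not by a known gene or an agent, and no genotypes were given. The paper reports that the HFC gilts of this breed also gained weight more slowly, stayed longer in the test and had more fat at several points. It gives the age at the end of the test with a spread, so equal ages are not shown by the labels. These differences cannot be told apart from feed conversion here.

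Translation starts when eIF2, loaded with GTP and the initiator tRNA, joins the small ribosomal subunit with eIF1, eIF1A and the multi-subunit scaffold eIF3. The eIF4F complex, made of the cap-binding eIF4E, the helicase eIF4A and the scaffold eIF4G, brings the mRNA, and eIF5B joins the large subunit once the start codon is found. In elongation eEF1A delivers each aminoacyl-tRNA, eEF1B reloads eEF1A with GTP, and eEF2 moves the ribosome by a codon. Kinases that phosphorylate eIF2 and proteins that hold eIF4E slow initiation, and in a gland that secretes peptide hormones these factors set how much mRNA is turned into hormone.

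Between 6010629 and 11794256 counts per pig fell on genes, and 15816 to 16694 genes per pig had a count. Levels are given as CPM, counts scaled to the library size with TMM factors, and a negative log2 fold change means a lower level in the HFC pigs. Its standard error is written as SE, and a nominal p is one before adjustment. CPM does not correct for the length of a transcript, so levels are compared between pigs and not between genes. The hormone genes PRL, GH1 and CGA summed to 79790 to 133207 CPM for LFC and 88862 to 198918 CPM for HFC. POMC, another hormone gene of the gland, was not found by symbol and is missing from this sum. Within this sum the log2 fold changes went opposite ways, with PRL at 1.27 (SE 0.28, Benjamini-Hochberg adjusted p = 0.372 in edgeR), CGA at -0.56 (SE 0.27, adjusted p = 0.433) and GH1 at 0.04 (SE 0.24). PRL and CGA had a nominal p up to 0.05. Their part in the values of the factors was not tested. In whole glands, fewer cells of a type and less RNA per cell cannot be told apart. Pigs are named by group and replicate number, such as HFC 5. In 3 pigs, LFC 4, LFC 6 and HFC 5, long genes had lower levels relative to short genes than in the other 13, and these pigs were at the extreme of many of the genes below. The results are therefore also given without HFC 5 and without all 3.

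None of the 50 genes differed between the groups in edgeR's quasi-likelihood test at a Benjamini-Hochberg adjusted p up to 0.05 with a 1.3-fold change or more, and neither did any other gene (0% of the 13621 genes). The smallest adjusted p among the 50 was 0.413. A nominal p up to 0.05 was reached by 6 of them, against 11.4% of all genes tested. Of these 6, 5 were higher in the LFC pigs (4.41% of all genes) and 1 was higher in the HFC pigs (7.03% of all genes). By sign alone 37 of the 50 were higher in the LFC pigs, where 52.1% of all genes were, and 13 were higher in the HFC pigs, where 47.9% of all genes were. The median log2 fold change was -0.12 over the 50 genes and -0.01 over all genes. In 0 of the 50 genes were the groups free of overlap, against 0% of all genes for a higher level in LFC and 0.00734% for a higher level in HFC. In DESeq2 29 of 13446 genes were called (0.216%), of which 0 were translation factors, and the smallest adjusted p of the 50 was 0.209. A nominal p up to 0.05 in DESeq2 was reached by 8 of the 50, against 9.98% of the 18963 genes with a count. That set is wider than the 13446, as it includes genes for which DESeq2 gave no adjusted p. Of these 8, 7 were higher in LFC (3.88% of the 18963) and 1 in HFC (6.1% of the 18963). The paper, which used DESeq2 at the same thresholds, reports far more differing genes for this breed than were called here. Its supplement lists EIF4G1, EIF3A, EIF4E and EIF2B1 among them, the last of which is not among the 50. The source of this difference from the paper was not tested. The p-values above set the difference between the groups against the spread between gilts within each group, for these 16 gilts.

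**Figure D1:**
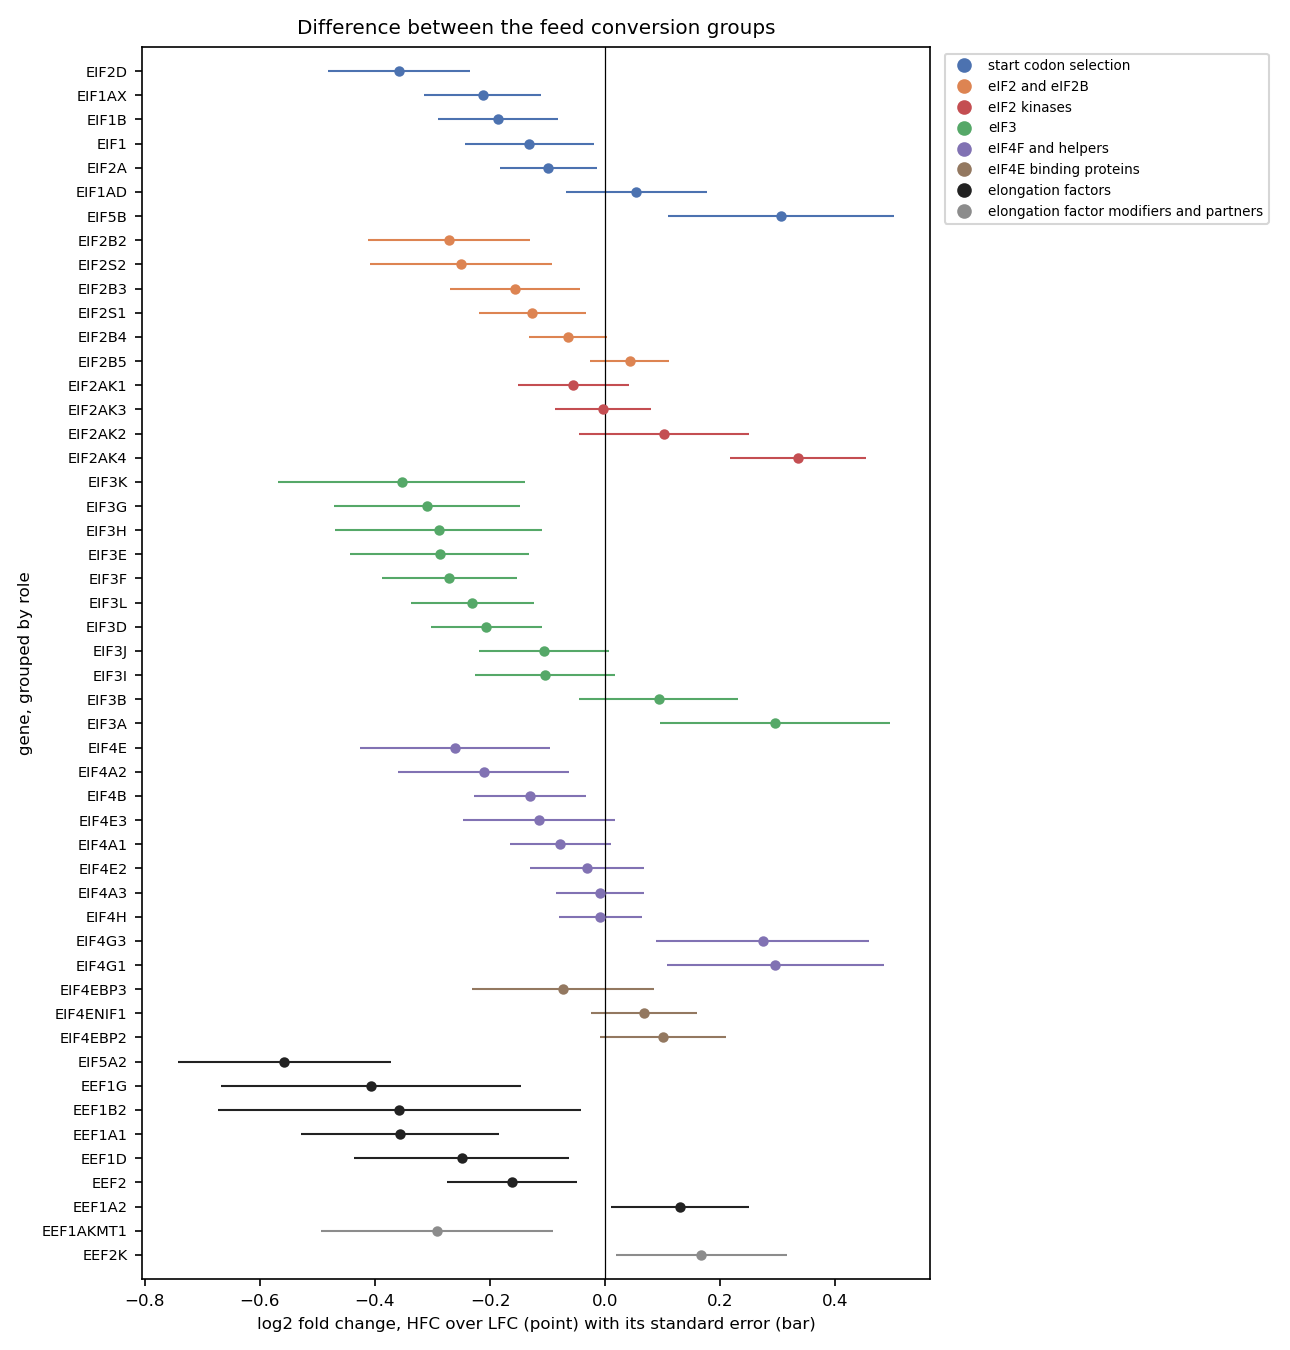
Log2 fold change of each of the 50 genes, HFC over LFC (horizontal axis), with its standard error as a bar, from edgeR over 8 LFC and 8 HFC pigs, coloured and ordered by role. 37 points lie below 0 and 13 above, and the farthest are EIF5A2 at -0.56 and EIF2AK4 at 0.33.

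The first group holds 7 genes that select the start codon or place the first tRNA, of which 5 were higher in LFC and 2 in HFC pigs, with a median log2 fold change of -0.13. EIF2D (ENSSSCG00000015648, chromosome 9, 67239419 to 67261976 of Sscrofa11.1), which can place tRNA on the ribosome without eIF2 and helps to recycle ribosomes, had 29.1, 37.1 and 51.4 CPM as the lowest, median and highest LFC value. The HFC values were 24.2, 29.3 and 40.6 CPM. The groups overlapped, with 7 of the 8 HFC pigs below the LFC median and HFC 5 the only one above it. The means were 38.4 ± 7.25 CPM (SD, n = 8) and 30.003 ± 5.18 CPM (SD, n = 8), log2 fold change -0.36 (SE 0.12, Benjamini-Hochberg adjusted p = 0.413 in edgeR). Without each pig in turn it was between -0.41 and -0.27. It was -0.17 with 1 surrogate variable, a hidden factor estimated from the data, and -0.20 with the slope of expression on gene span in each pig as a covariate.

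EIF1AX, the scanning factor eIF1A encoded on chromosome X (16429518 to 16449589), ran from 117 to 160.0 CPM in the LFC pigs (median 132) and from 96.1 to 156 CPM in the HFC pigs (median 113). The highest HFC value was again that of HFC 5, and the other 7 lay below the LFC median. Its log2 fold change was -0.21 (SE 0.10). EIF1 and EIF1B, paralogs that guard against wrong start codons, had log2 fold changes of -0.13 and -0.19, and EIF2A, an alternative carrier of the initiator tRNA, had -0.10. EIF5B, the GTPase that joins the large subunit, lay on the other side with 65.4 ± 22.4 CPM (SD, n = 8) in LFC and 80.8 ± 15.0 CPM (SD, n = 8) in HFC, log2 fold change 0.31 (SE 0.20). EIF1AD, a nuclear protein with an eIF1A-like domain that is not an established initiation factor, had 0.05.

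Of the 6 measured subunits of eIF2 and of its exchange factor eIF2B, 5 were higher in LFC and 1 in HFC pigs, and none had a nominal p up to 0.05. EIF2S1, the alpha subunit that the stress kinases phosphorylate, had 57.7 ± 3.04 CPM (SD, n = 8) in LFC and 52.9 ± 8.61 CPM (SD, n = 8) in HFC, log2 fold change -0.13 (SE 0.09). EIF2S2, the beta subunit, had -0.25 (SE 0.16), and HFC 5, at 185 CPM, was its highest pig of the 16. Among the eIF2B subunits the log2 fold changes were -0.27 for EIF2B2, -0.16 for EIF2B3, -0.06 for EIF2B4 and 0.04 for EIF2B5, which holds the catalytic domain. EIF2B4 and EIF2B5 varied little from pig to pig: EIF2B4 lay between 31.8 and 39.7 CPM in all 16 pigs, and EIF2B5 between 45.4 and 61.8 CPM.

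The 4 eIF2 kinases split evenly, with 2 higher in each group. EIF2AK4 (GCN2, which senses uncharged tRNA; ENSSSCG00000039061, chromosome 1, 131241571 to 131355291) had 23.2, 26.1 and 37.4 CPM as the lowest, median and highest LFC value and 27.2, 34.7 and 45.1 CPM as the HFC values. All 8 HFC pigs lay above the LFC median, although the ranges overlapped. The means were 27.7 ± 4.89 CPM (SD, n = 8) and 35.0 ± 5.84 CPM (SD, n = 8), log2 fold change 0.33 (SE 0.12, Benjamini-Hochberg adjusted p = 0.413 in edgeR). It was the 1 gene of the 50 with a nominal p up to 0.05 towards the HFC pigs, and stayed between 0.27 and 0.41 without each pig in turn. With the surrogate variable it was 0.19, and with the slope as a covariate 0.22. The kinases of other signals had log2 fold changes near 0, at -0.06 for EIF2AK1 (HRI, which senses low heme), 0.10 for EIF2AK2 (PKR, double-stranded RNA) and 0.00 for EIF2AK3 (PERK, endoplasmic reticulum stress), with standard errors of 0.10, 0.15 and 0.08. The sign of each of these 3 turned when 1 pig or another was left out.

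Among the 11 eIF3 subunits 9 were higher in LFC and 2 in HFC pigs, with a median log2 fold change of -0.23, and 3 reached a nominal p up to 0.05. EIF3F (chromosome 9, 1291774 to 1297972) had 118 ± 21.6 CPM (SD, n = 8) in LFC and 98.1 ± 14.0 CPM (SD, n = 8) in HFC, log2 fold change -0.27 (SE 0.12). EIF3L (chromosome 5, 9966122 to 9996260) had 232 ± 39.0 CPM (SD, n = 8) and 197 ± 23.6 CPM (SD, n = 8), log2 fold change -0.23 (SE 0.11). EIF3D (chromosome 5, 11213281 to 11233149), a subunit that can itself bind the cap, had 131, 165 and 191 CPM as the lowest, median and highest LFC value and 117, 138 and 155 CPM as the HFC values. All 8 HFC pigs lay below the LFC median of EIF3D, and the ranges overlapped. Its log2 fold change was -0.21 (SE 0.10), and the adjusted p of the 3 subunits was between 0.426 and 0.433 (Benjamini-Hochberg, edgeR).

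The other subunits of the LFC side were EIF3K at -0.35, EIF3G at -0.31, EIF3H at -0.29, EIF3E at -0.29, EIF3J at -0.11 and EIF3I at -0.10. EIF3A, the large core subunit on which the complex is built, stood opposite with 118 ± 40.5 CPM (SD, n = 8) in LFC and 144 ± 27.1 CPM (SD, n = 8) in HFC, log2 fold change 0.30 (SE 0.20). EIF3B, the second core subunit, had 0.09 (SE 0.14). The subunits thus did not vary as 1 block between pigs. In LFC 4, LFC 6 and HFC 5 EIF3E, EIF3G, EIF3H, EIF3I and EIF3K were higher than in any of the other 13 pigs, while EIF3A and EIF3B were lower than in any of them. EIF3K lay between 363 and 467 CPM in the 3 pigs and between 161 and 268 CPM in the others. EIF3A lay between 51.7 and 87.0 CPM in the 3 pigs and between 104 and 177 CPM in the others.

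**Figure D2:**
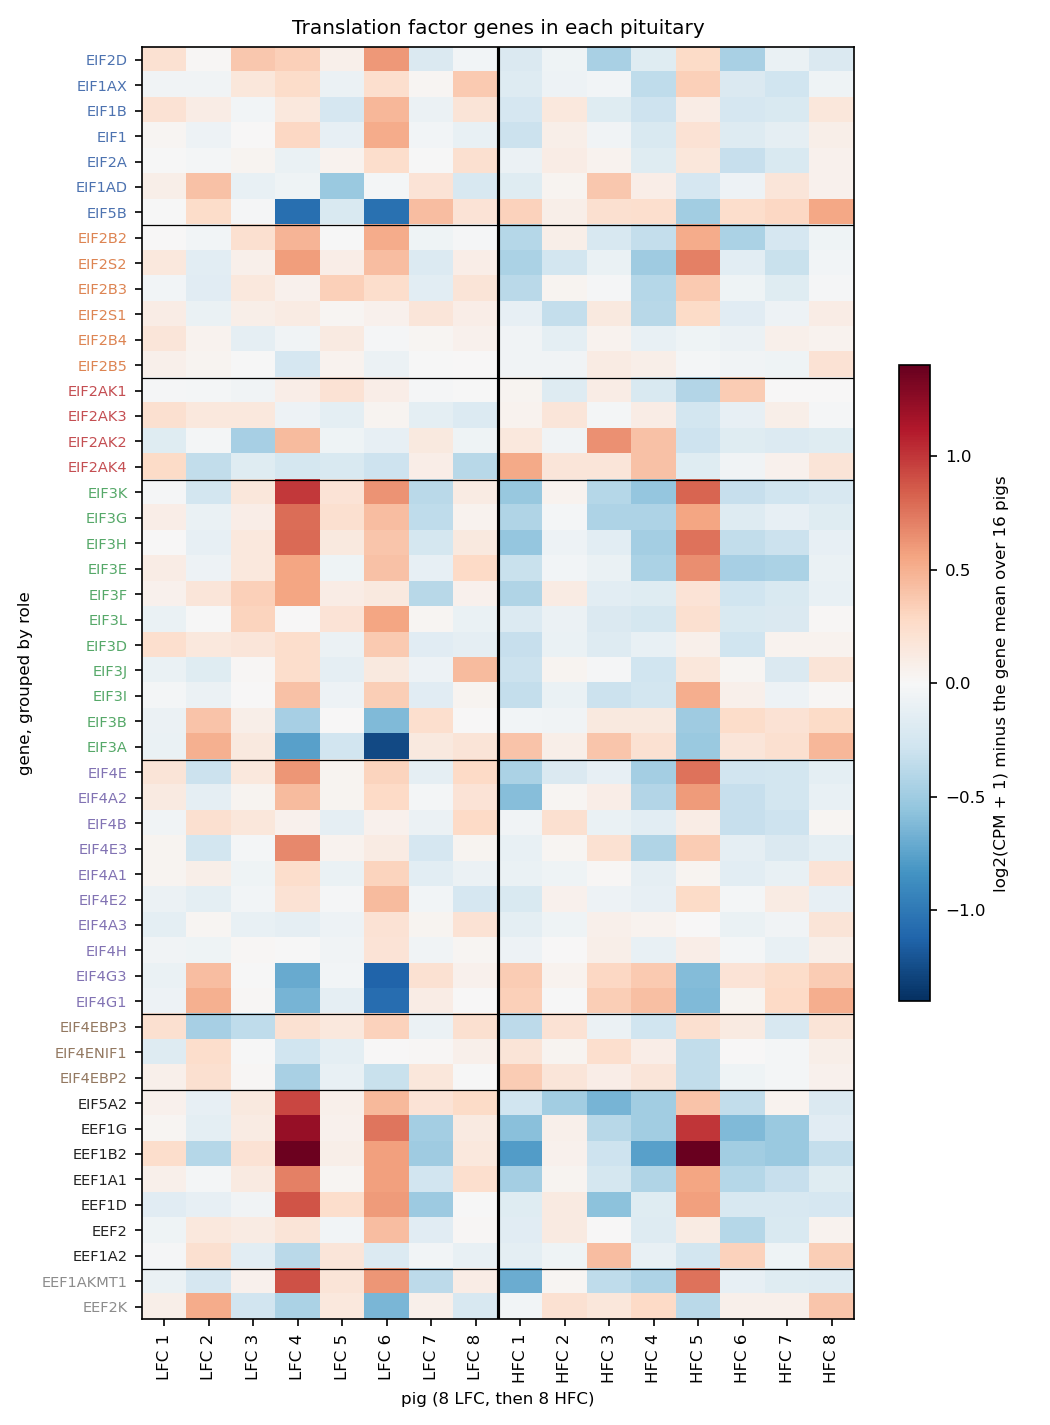
Each of the 50 genes (rows, coloured and grouped by role, ordered within a role by log2 fold change) in each of the 16 pigs (columns, LFC then HFC), as log2(CPM + 1) minus the mean of the gene over the 16 pigs, red for higher and blue for lower. The columns of LFC 4, LFC 6 and HFC 5 are red for most elongation factor subunits and for EIF3K, EIF3G, EIF3H and EIF3E, and blue for EIF5B, EIF3A, EIF4G1 and EIF4G3.

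Of the 10 genes of the eIF4F complex and its helpers 8 were higher in LFC and 2 in HFC pigs, with a median log2 fold change of -0.05 and none at a nominal p up to 0.05. EIF4E, the cap-binding subunit, had 80.3, 111 and 153 CPM as the lowest, median and highest LFC value and 71.1, 84.6 and 169 CPM as the HFC values. In 7 of the 8 HFC pigs EIF4E was below the LFC median, and HFC 5 was the highest pig of the 16. Its log2 fold change was -0.26 (SE 0.17). The 2 genes on the HFC side were the scaffolds. EIF4G1 had 233 ± 70.2 CPM (SD, n = 8) in LFC and 286 ± 61.8 CPM (SD, n = 8) in HFC, log2 fold change 0.30 (SE 0.19), and EIF4G3 had 119.6 ± 36.4 CPM (SD, n = 8) and 145 ± 27.1 CPM (SD, n = 8), log2 fold change 0.27 (SE 0.18). For both scaffolds 7 of the 8 HFC pigs were above the LFC median, and HFC 5 was below it.

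The helicase genes had small differences, with log2 fold changes of -0.08 for EIF4A1 and -0.21 for EIF4A2. EIF4A3, a relative that sits in the exon junction complex on spliced mRNA, had -0.01. Of the helicase cofactors EIF4B had -0.13 and EIF4H -0.01. EIF4H lay between 249.5 and 307 CPM in all 16 pigs, and the 95% interval of its log2 fold change ran from -0.16 to 0.15. EIF4E2, a cap-binding protein that represses rather than starts translation, had -0.03, and EIF4E3 had -0.11. Of the proteins that hold eIF4E away from eIF4G or out of the cytoplasm, EIF4EBP2 had 0.10, EIF4ENIF1 0.07 and EIF4EBP3 -0.07, with standard errors of 0.11, 0.09 and 0.16. EIF4EBP3 was the gene with the fewest counts of the binding proteins, between 45 and 99 per pig.

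The group with the lowest median log2 fold change was that of the 7 elongation factors, at -0.36, with 6 higher in LFC and 1 in HFC pigs. EIF5A2 (ENSSSCG00000040946, chromosome 13, 109510621 to 109530487), the less common form of the hypusine-bearing factor that helps ribosomes past difficult peptide bonds, had 8.04, 9.94 and 17.7 CPM as the lowest, median and highest LFC value. The HFC values were 5.22, 6.87 and 11.8 CPM. In 7 of the 8 HFC pigs EIF5A2 was below the LFC median, the exception being HFC 5, and the groups overlapped. The means were 10.9 ± 3.01 CPM (SD, n = 8) and 7.42 ± 2.14 CPM (SD, n = 8), log2 fold change -0.56 (SE 0.18, Benjamini-Hochberg adjusted p = 0.413 in edgeR). This gene rested on 39 to 116 counts per pig.

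EEF1A1 (ENSSSCG00000004489, chromosome 1, 92421230 to 92472785), the main carrier of aminoacyl-tRNA, made up 1.22% ± 0.203 (SD, n = 8) of all gene counts in LFC and 0.954% ± 0.185 (SD, n = 8) in HFC. Its levels were 8844, 11406 and 17396 CPM as the lowest, median and highest LFC value and 7633, 8754 and 15652 CPM as the HFC values. Again 7 of the 8 HFC pigs lay below the LFC median and HFC 5 above it. The log2 fold change was -0.36 (SE 0.17, Benjamini-Hochberg adjusted p = 0.433 in edgeR). Reads of EEF1A1 also match EEF1A2 in part and many processed copies in mammalian genomes, so its counts are uncertain to the extent that the counting divided them.

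Of all 50 genes, EEF1B2 and EEF1G, subunits of the exchange factor eEF1B, varied most between pigs. EEF1B2 had 761 ± 360 CPM (SD, n = 8) in LFC and 594 ± 408 CPM (SD, n = 8) in HFC, log2 fold change -0.36 (SE 0.31), and its highest pig, HFC 5, was 4.49 times its lowest, HFC 1. EEF1G had 1748 ± 736 CPM (SD, n = 8) and 1319 ± 644 CPM (SD, n = 8), log2 fold change -0.41 (SE 0.26). EEF1D had -0.25 (SE 0.19). EEF2, the translocase, had 3280 ± 435 CPM (SD, n = 8) in LFC and 2933 ± 370 CPM (SD, n = 8) in HFC, log2 fold change -0.16 (SE 0.11). EEF1A2, the form of eEF1A found in neurons and muscle and here the only elongation factor on the HFC side, had 379 ± 51.2 CPM (SD, n = 8) and 415 ± 77.2 CPM (SD, n = 8), log2 fold change 0.13 (SE 0.12). Of the enzymes that act on these factors, EEF1AKMT1, which methylates a lysine of eEF1A, had -0.29 (SE 0.20), and EEF2K, which phosphorylates and stops eEF2, had 0.17 (SE 0.15).

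**Figure D3:**
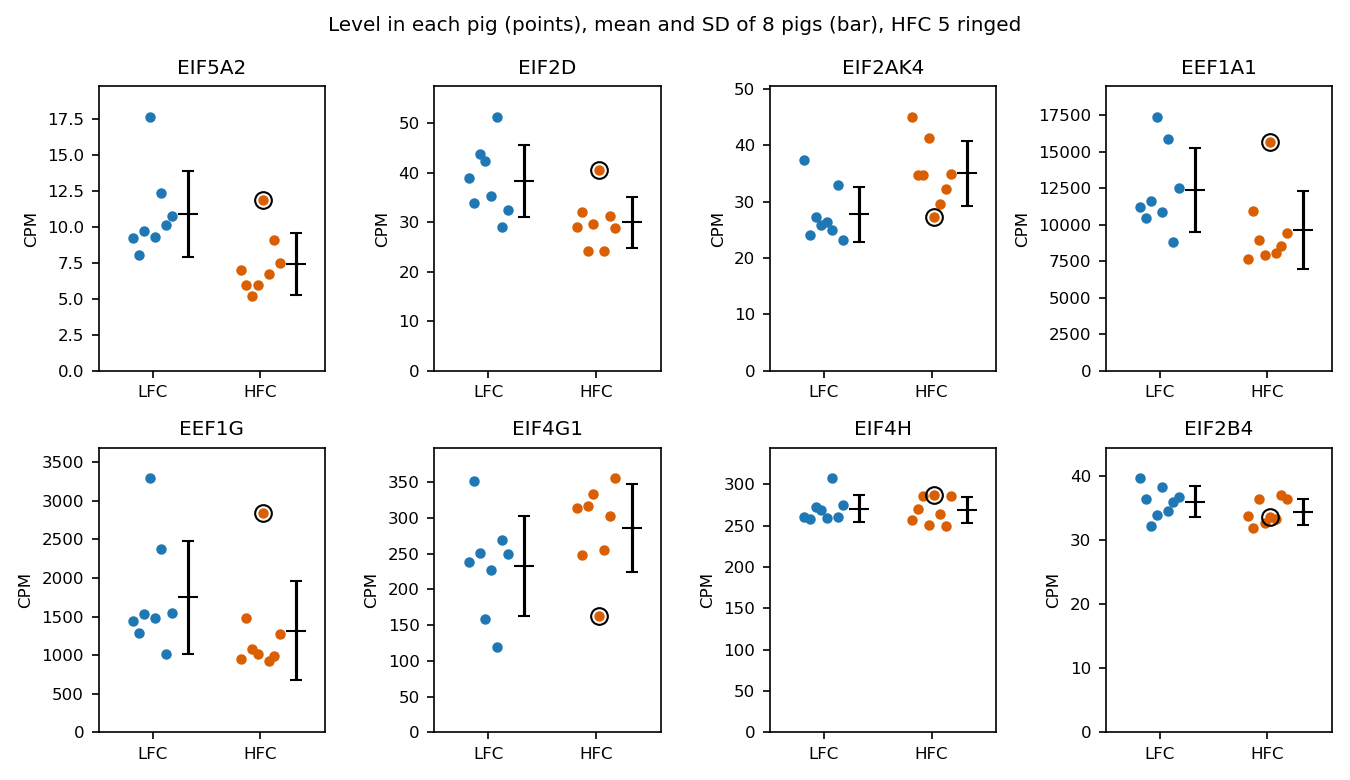
Levels of 8 genes in CPM (vertical axis, from 0) in the 8 LFC pigs (blue) and 8 HFC pigs (orange), with the mean and SD of each group as a bar and HFC 5 ringed. HFC 5 lies above the other HFC pigs in EIF5A2, EIF2D, EEF1A1 and EEF1G and below them in EIF4G1 and EIF2AK4, while EIF4H and EIF2B4 vary little.

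All 50 genes together made up 2.49% ± 0.314 (SD, n = 8) of all gene counts in LFC and 2.09% ± 0.303 (SD, n = 8) in HFC, most of it from the 6 eEF1 and eEF2 subunit genes, with 1.84% and 1.49%. The lowest and highest LFC shares were 2.08% and 3.00%, and the HFC shares ran from 1.86% to 2.80%, so the groups overlapped.

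Where a factor has paralogs, the ratio within each pig does not depend on the library scaling, except through the 1 added to each CPM. The log2 ratio of EEF1A1 to EEF1A2 was 5.00 ± 0.48 (SD, n = 8) for LFC and 4.52 ± 0.50 (SD, n = 8) for HFC, a difference of -0.48, with 7 of the 8 HFC pigs below the LFC median (p = 0.0706 in an exact permutation test, two-sided, and 0.188 once adjusted for the 5 pairs). The log2 ratio of EIF4E to the repressive EIF4E2 was 1.10 ± 0.26 (SD, n = 8) and 0.84 ± 0.28 (SD, n = 8), a difference of -0.26 with 7 of the 8 HFC pigs below the LFC median (exact two-sided permutation test, p = 0.0751, adjusted 0.188). The differences were 0.17 for EIF4A1 to EIF4A2, 0.06 for EIF1 to EIF1B and 0.01 for EIF4G1 to EIF4G3, with adjusted p-values of 0.332, 0.477 and 0.819 in the same exact permutation test. The 2 scaffolds kept nearly the same proportion in every pig, as EIF4G1 had between 1.75 and 2.19 times the CPM of EIF4G3, a ratio of read numbers and not of transcripts. Without HFC 5 the differences were -0.63 for EEF1A1 to EEF1A2, -0.35 for EIF4E to EIF4E2 and 0.26 for EIF4A1 to EIF4A2, with adjusted exact permutation p-values of 0.0186, 0.0186 and 0.0236. Without LFC 4, LFC 6 and HFC 5 they were -0.40, -0.35 and 0.26, with adjusted exact permutation p-values of 0.0515, 0.0408 and 0.0515. These pigs were singled out after the values of these genes were seen, so the p-values without them are not an independent test. Of the pigs left out singly, only HFC 5 gave an adjusted p up to 0.05. The smallest with any other pig left out was 0.125, without LFC 2 (exact permutation test).

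HFC 5 changed many of the counts above. Without it 21 of the 50 genes had a nominal p up to 0.05, against 25.7% of all genes, with 18 higher in the LFC pigs (11.8% of all genes) and 3 higher in the HFC pigs (13.8% of all genes). The 18 included 7 of the 11 eIF3 subunits and 4 of the 7 elongation factors. EEF1B2 had a log2 fold change of -0.72 without HFC 5, EEF1G -0.64, EIF5A2 -0.65, EEF1A1 -0.47, EIF3H -0.44 and EIF4E -0.41. On the other side were EIF2AK4 at 0.40, EIF4G1 at 0.40 and EIF4G3 at 0.38. In 46 of the 50 genes the log2 fold change lay farther from 0 than with all 16 pigs. With all 16 pigs 11.4% of all genes had a nominal p up to 0.05, so the change was not confined to the 50. Leaving out LFC 4 instead moved 43 of the 50 nearer to 0, with EEF1B2 at -0.11, EEF1G at -0.20, EIF5A2 at -0.41, EEF1A1 at -0.26, EIF3H at -0.17 and EIF4E at -0.17, and leaving out LFC 6 moved 42 nearer to 0. Over all genes the share at a nominal p up to 0.05 was 7.40% without LFC 4 and 7.70% without LFC 6. The share of all genes that moved nearer to or farther from 0 is not given here. The counts of moved genes are thus not shown to be particular to the 50. Without HFC 5 still 0 of the 50 were called, and the smallest adjusted p came to 0.0931 (Benjamini-Hochberg, edgeR). Without LFC 4, LFC 6 and HFC 5 together, 17 of the 50 had a nominal p up to 0.05 (14.4% of all genes), with 16 higher in LFC (6.66% of all genes) and 1 higher in HFC (7.69% of all genes), again with 0 called and a smallest adjusted p of 0.239. EEF1G then had -0.32 and EEF1A1 -0.31, and EIF4G1 had 0.20. Both choices of pigs were made after the values were seen.

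The 3 pigs stood out by the slope of log2(CPM + 1) on the log2 span of the gene in the genome, taken over 10890 genes in each pig. The slope was -0.0826 in LFC 6, -0.0813 in LFC 4 and -0.0643 in HFC 5, and between -0.0200 and 0.0640 in the other 13 pigs. Its mean was -0.0168 ± 0.0445 (SD, n = 8) for LFC and 0.0168 ± 0.0377 (SD, n = 8) for HFC. HFC 5 and LFC 6 also had the fewest counts on genes of the 16 pigs, 6010629 and 6258650, and LFC 4 had 7439215. LFC 4 and HFC 5 had the lowest TMM factors, 0.884 and 0.887, and LFC 6 had 0.934. HFC 2, outside the 3, had 7000177 counts and a factor of 0.930. Median counts were 7803050 for LFC and 9027330 for HFC. The part of these library values was not tested. In 17 of the 50 genes (34%, against 10.2% of all genes tested) the 3 pigs were the 3 highest of the 16, among them EEF1A1, EEF1B2, EEF1D, EEF1G, EIF5A2, EIF4E, EIF4A2, EIF1 and EIF2S2. In 8 of the 50 (16%, against 10.04% of all genes tested) they were the 3 lowest, which were EIF4G1, EIF4G3, EIF3A, EIF3B, EIF5B, EEF2K, EEF1A2 and EIF4EBP2. EEF1G lay between 2381 and 3295 CPM in the 3 pigs and between 923 and 1541 CPM in the others. EIF4G1 lay between 119 and 163 CPM in the 3 pigs and between 228 and 356 CPM in the others. With the slope as a covariate 44 of the 50 genes had a log2 fold change nearer to 0, and the median of the 50 was -0.03 instead of -0.12. EIF5A2 then had -0.32, EEF1A1 -0.13 and EEF1G -0.02. With 1 surrogate variable in its place these were -0.26, -0.06 and 0.07, and the median was again -0.03. In these fits 1 and 0 of the 50 had a nominal p up to 0.05, against 4.77% and 4.59% of all genes. Without a covariate it was 6 of the 50 and 11.4% of all genes, so the fall was not confined to the 50. The share of all genes that moved nearer to 0 is not given here.

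**Figure D4:**
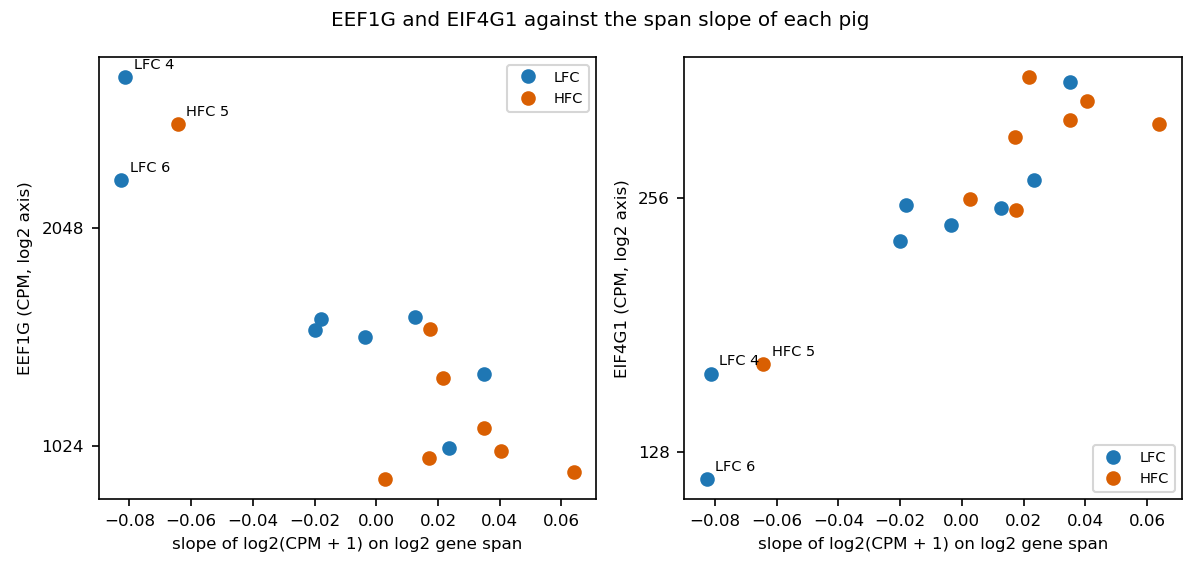
Levels of EEF1G (left) and EIF4G1 (right) in CPM on a log2 axis against the slope of log2(CPM + 1) on log2 gene span in each pig, LFC in blue and HFC in orange. LFC 4, LFC 6 and HFC 5 lie at the left in both panels, highest in EEF1G and lowest in EIF4G1, apart from the other 13 pigs.

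Since these pigs lie apart, correlations were taken over the other 13, on log2(CPM + 1), for 8 relations chosen after the values were seen. The adjustment over the 8 relations does not cover that choice. Their p-values, here and in the next paragraph, are therefore not an independent test. EEF1G moved with EEF1A1 (Pearson's r = 0.964, Spearman's rho = 0.956, permutation p = 1e-05 and 2e-05, adjusted over the 8 relations 8e-05 and 1.6e-04), and the first of these p-values is the smallest that 100000 resamples can give. It also moved with EEF1B2, with r = 0.912 and rho = 0.852 (permutation p = 9e-05 and 5e-04, adjusted 2.4e-04 and 0.00133). EEF1G and EEF2 had r = 0.776 and rho = 0.780 (permutation p = 0.0016 and 0.00252, adjusted 0.0032 and 0.00504). The scaffolds EIF4G1 and EIF3A had r = 0.876 and rho = 0.918 (permutation p = 2e-05 and 4e-05, adjusted 8e-05 and 1.6e-04). With the 2 pigs most distant from the first gene's median left out, r was 0.953, 0.913, 0.704 and 0.805 in this order. Within the 6 LFC pigs of the 13, r was 0.952, 0.899, 0.499 and 0.903 (exact permutation p = 0.00417, 0.0208, 0.318 and 0.00694), and within the 7 HFC pigs it was 0.952, 0.844, 0.879 and 0.806 (exact permutation p = 0.00218, 0.0151, 0.00496 and 0.0304). For EEF1G and EEF2 the value within the LFC pigs did not pass the threshold at this number. The slope on gene span still varied over the 13 pigs. Its r was -0.62 with EEF1A1, -0.77 with EEF1B2, -0.10 with EEF2 and 0.74 with EIF3A. The part of the slope in these relations was not tested.

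EEF1G and EIF4G1, which stood opposite in the 3 pigs, had r = -0.48 and rho = -0.49 over the other 13 (permutation p = 0.1 and 0.0897, adjusted 0.115 and 0.0968), so an opposite course was not shown outside them. EEF1G and the stable EIF4H had r = 0.37 and rho = 0.48 (permutation p = 0.208 and 0.0968, adjusted 0.208 and 0.0968). The slope and EIF4G1 had r = 0.748 and rho = 0.764 over the 13 pigs (permutation p = 0.0032 and 0.00325, adjusted 0.00512 and 0.0052), and 0.748 without the 2 pigs farthest from the median slope. Within the LFC pigs this r was 0.817 and within the HFC pigs 0.510 (exact permutation p = 0.0125 and 0.240). The slope and EEF1G had r = -0.60 and rho = -0.50 (permutation p = 0.0311 and 0.0839, adjusted 0.0415 and 0.0968). Without the 2 pigs farthest from the median slope this r was -0.43, and within the LFC and HFC pigs it was -0.64 and -0.24 (exact permutation p = 0.178 and 0.581). The LFC value was as large as the pooled one, but neither passed the threshold within its 6 or 7 pigs. Of the 49 other genes, 8 had an r of at least 0.8 with EEF1G over the 13 pigs (16.3%, against 1.72% of the 13620 other genes tested). An r of -0.8 or below was found in 0 of the 49 and in 0.330% of the 13620. With the 8 genes, the slope had an r from -0.84 (EIF3G) to -0.42 (EIF3E) over the same 13 pigs. The part of the slope in this count was not tested.

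The direction of the 50 genes went with their span as it did in the whole table. The genes higher in the LFC pigs had a median span of 22.6 kb and those higher in the HFC pigs 40.9 kb, against 21.9 kb and 42.4 kb over the 10890 genes with a span. Of the 12 genes under 10 kb 11 were higher in the LFC pigs, with a median log2 fold change of -0.20. Of the 26 genes from 10 to 50 kb 19 were, with a median of -0.11, and of the 12 genes of 50 kb or more 7 were, with a median of -0.06. Of all 10890 genes with a span, 5818 were higher in the LFC pigs. Their share within each of these ranges is not given here. The span counts introns, so it is not the length of the transcript.

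Across all 16 pigs the median coefficient of variation of the 50 genes was 18.9%, against 19.1% for the 10597 genes tested with a mean of at least 7.89 CPM, the lowest mean among the 50. Of the 50 genes 5 varied by under 10% (10%, against 6.36% of those genes), and 6 by over 30% (12%, against 15.6%). The 5 were EIF4H at 5.81%, EIF2B4 at 6.47%, EIF2B5 at 6.89%, EIF4A3 at 8.42% and EIF2AK3 at 9.97%. The 6 were EEF1B2 at 56.4%, EEF1G at 45.9%, EIF3K at 36.9%, EEF1AKMT1 at 34.2%, EIF5A2 at 33.8% and EEF1D at 30.9%. Within eIF2B, EIF2B4 and EIF2B5 varied by under 7% and EIF2B2 by 23.0%.

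**Figure D5:**
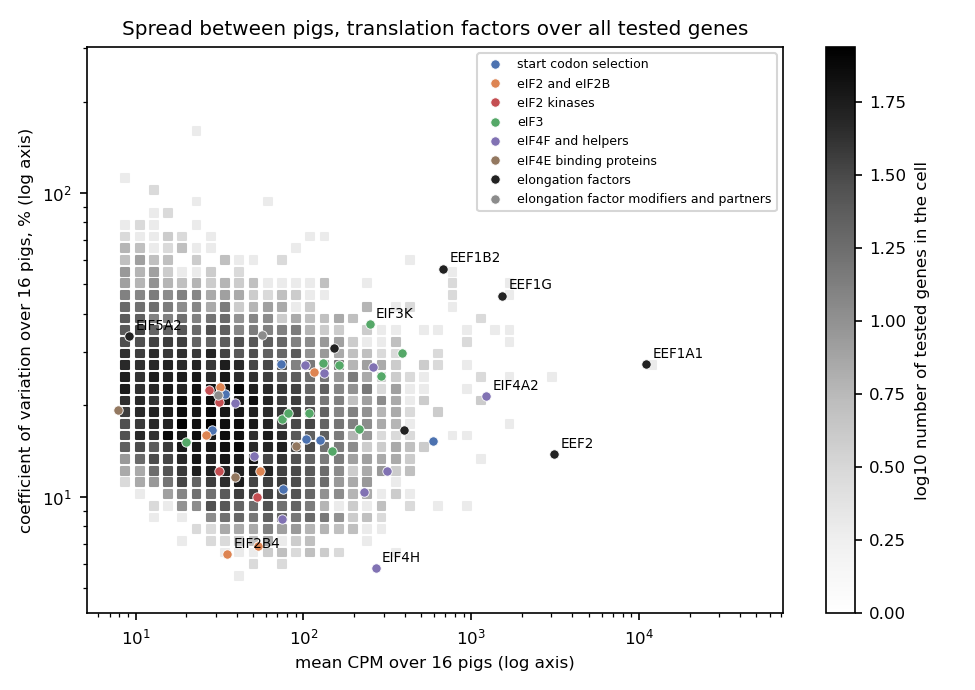
Coefficient of variation over the 16 pigs in % against mean CPM, both on log axes, with the 50 genes as points coloured by role. Grey cells show all tested genes of at least 7.89 CPM, the 50 included, and their shade gives the number of genes on a log10 scale. EEF1B2 and EEF1G lie near the top of the points and EIF4H and EIF2B4 at the bottom.

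Genes that work beside the factors were read from the same fit, without the slope as a covariate. Over all genes tested 52.1% were higher in the LFC pigs, and 4.41% were so at a nominal p up to 0.05. Towards the HFC pigs these shares were 47.9% and 7.03%. The part of the slope in the lists of such genes was not tested. Of 9 factor genes known to carry a 5′ terminal oligopyrimidine tract, the mark of mRNAs that mTOR controls, the LFC level was the higher in all 9, with a median log2 fold change of -0.29, and 1 (EIF3F) had a nominal p up to 0.05. These are 9 of the 50 genes, so their count is not separate from the counts above. The 46 ribosomal protein genes found by symbol, which share that tract, lay on the LFC side without exception, with a median of -0.28 and 2 at a nominal p up to 0.05. MTOR itself had 51.6 ± 16.3 CPM (SD, n = 8) in LFC and 68.2 ± 15.9 CPM (SD, n = 8) in HFC, log2 fold change 0.40 (SE 0.20). Of the 7 kinases and regulators above initiation, 3 were higher in LFC and 4 in HFC pigs, and none had a nominal p up to 0.05. EIF4EBP1, the mTOR target left out of the 50, had -0.14 (SE 0.16).

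Of the 14 genes tested for termination, ribosome recycling and binding of the poly(A) tail, 8 were higher in LFC and 6 in HFC pigs, with a median log2 fold change of -0.02. LARP1, which binds messages with the oligopyrimidine tract, was the 1 among them with a nominal p up to 0.05, with 40.3 ± 12.1 CPM (SD, n = 8) in LFC and 57.6 ± 11.3 CPM (SD, n = 8) in HFC. Its log2 fold change was 0.52 (SE 0.18, Benjamini-Hochberg adjusted p = 0.413 in edgeR). Of the 9 enzymes that make hypusine on eIF5A or diphthamide on eEF2, 8 were higher in the LFC pigs (52.1% of all genes). Their median was -0.15. DPH3, of the diphthamide pathway, was the 1 with a nominal p up to 0.05, with 80.4 ± 34.6 CPM (SD, n = 8) in LFC and 48.9 ± 11.8 CPM (SD, n = 8) in HFC and log2 fold change -0.72 (SE 0.22). Of the 9 genes that respond to phosphorylated eIF2, 6 were higher in LFC and 3 in HFC pigs, with a median of -0.01 and none at a nominal p up to 0.05. ATF4, the transcription factor of that response, had -0.20 (SE 0.12), and DDIT3 had -0.28 (SE 0.15).

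Markers of other cells differed between pigs. The 4 blood and vessel markers summed to 347 to 1488 CPM in LFC and 142 to 1120 CPM in HFC, with medians of 507 and 262 CPM. Among them HBB and ALAS2, of red blood cells, had log2 fold changes of -1.05 (SE 0.51) and -0.97 (SE 0.41), and the vessel genes CDH5 and PECAM1 had 0.43 (SE 0.20) and 0.06 (SE 0.15). ALAS2 and CDH5 reached a nominal p up to 0.05. The 5 macrophage markers summed to 149 to 258 CPM in LFC and 84.2 to 302 CPM in HFC, with medians of 190 and 149 CPM. None of these markers was at 0 over the 16 pigs together. Their part in the differences was not tested.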

How the data were processed

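The authors trimmed the reads with Flexbar, aligned them to Sscrofa11.1 with RSEM and STAR on the Ensembl annotation, without strand, and deposited raw counts of reads per gene for each pig. Their tables also hold group means, fold changes and p-values of their own comparison, which were not used. Symbols and positions came from that table, where 9550 of 10892 genes had a symbol. Groups were read from the labels, where low_FCR and high_FCR stand under the tag "shear force".

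In R 4.3.3, counts were tested with edgeR 4.0.16 (TMM scaling, its expression filter, quasi-likelihood F test, Benjamini-Hochberg adjustment over 13621 genes). The standard error was taken from the F statistic. Paralog ratios of CPM + 1 were compared by exact permutation over 12870 splits of the pigs. Alternatives were DESeq2 1.42.0, sva 3.50.0, other scalings, filters and covariates, and pigs left out. The rest used scipy 1.17.1, pandas 2.3.3 and numpy 2.4.6 in Python 3.11.15, and the tests were tested on simulated data. No 2 pigs of a group were near copies (chi-square per degree of freedom 11.4 to 85.9), and the common coefficient of variation was 0.249.

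The genes and lists were chosen with earlier results of these data known. Genes were named by rule: the 6 smallest p in each direction, the highest and lowest mean in each role, the paralog pairs, the eIF2 kinases, EEF2, EEF1G, EIF2S1, EEF2K, 4 genes from the supplement of the study, outliers among these, and genes whose sign turned without 1 pig. Of these EIF2B1 was not analysed here. The other genes of the 50 and the genes of the added lists were named after their values were seen. Sequences and transcript lengths were not used here. The summed level of a further marker list is not reported here.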

Additional observations from a re-analysis of the deposited data

Results flagged for a closer look

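In 37 named genes, each with 8 LFC and 8 HFC pigs (74 groups), 11 values lay farther from their group than Dixon's critical ratio of 0.526 for 8 samples allows, on log2(CPM + 1). Chance gives about 1 in 20 such groups, and the groups share their pigs, so the 11 are not separate events. The share of such groups over all genes tested is not given here. The 11 are thus not shown to be particular to these genes. Of the 11, 9 belong to HFC 5.

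HFC 5 was the highest HFC pig in EEF1G at 2840 CPM (the others 923 to 1487), in EIF3H at 626 CPM (253 to 352), in EIF2S2 at 185 CPM (79.8 to 109.7), in EIF4E at 169 CPM (71.1 to 91.4) and in EIF1AX at 156 CPM (96.1 to 120.3). These are an elongation exchange factor subunit, an eIF3 subunit, an eIF2 subunit, the cap-binding factor and a scanning factor. HFC 5 was the lowest HFC pig in EIF4G1 at 163 CPM (the others 248 to 356), in EIF4G3 at 83.1 CPM (132 to 164), in EIF3A at 87.0 CPM (133 to 174) and in EIF5B at 49.4 CPM (74.2 to 102). The slope of expression on gene span moved with these values, as HFC 5 had the lowest slope of the HFC pigs, and its part was not tested.

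In the LFC group EIF4E3, a cap-binding relative of eIF4E, was highest in LFC 4 at 61.9 CPM, with the others between 32.2 and 42.0 CPM. EIF4H, the gene with the least variation over the 16 pigs among the 50, was highest in LFC 6 at 307 CPM, with the others between 258 and 275 CPM.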

How the results depend on the processing

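None of the 50 genes passed the adjusted threshold under any alternative run, without a fold minimum included, and of all genes only DESeq2 called any, with 29. Genes of the 50 at a nominal p up to 0.05 (before adjustment) numbered 6 at first (11.4% of all genes), 11 with total library scaling (10.2%), 0 with 1 surrogate variable (4.59%), 1 with the slope on gene span as a covariate (4.77%), 17 without the 3 pigs of lowest slope (14.4%), and 3 to 21 when pigs were left out singly. The fewest, 3, came without LFC 3, HFC 1 or HFC 6 (10.2%, 7.91% and 12.5% of all genes). The most, 21, came without HFC 5 (25.7% of all genes). Of all genes at that p, 61.4% were higher in the HFC pigs with TMM scaling and 46.0% with total library scaling. Between 33 and 38 of the 50 were higher in the LFC pigs when each pig was left out, against 47.7% to 53.3% of all genes. With the replicate number of the labels as a block, 4 of the 50 had a nominal p up to 0.05 (10.3% of all genes). In that fit 37 were higher in the LFC pigs (52.9% of all genes) and 0 were called. The numbers are not given as pairs, since the deviations of same-numbered pigs correlated by -0.343 to 0.374 and 0 pigs matched their own number best. The cause of these changes was not tested.

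Some named genes changed sign, always with an adjusted p above the threshold. With 1 surrogate variable the log2 fold changes became 0.0244 for EIF3H, 0.0249 for EIF2S2, 0.0165 for EIF4E, 0.0717 for EEF1G, 0.117 for EEF1AKMT1, 0.0347 for EIF1, 0.0120 for EIF3J, 0.00513 for EIF4A1, 0.109 for EIF4E3, 0.111 for EIF4EBP3, 0.131 for EIF4E2 and 0.0449 for EIF4H, and -0.067 for EIF4G1, -0.0431 for EIF5B, -0.0853 for EIF4G3, -0.0543 for EIF3A, -0.0742 for EEF2K, -0.0975 for EIF4EBP2 and -0.0528 for EIF1AD. With the slope as a covariate they became 0.0398 for EEF1AKMT1, 0.00962 for EIF1, 0.0589 for EIF4E3, 0.0769 for EIF4EBP3, 0.112 for EIF4E2 and 0.0329 for EIF4H, and -0.0113 for EIF4G3, -0.0129 for EEF2K, -0.0688 for EIF4EBP2 and -0.0255 for EIF1AD. Without the 3 pigs they became 0.00461 for EIF4A1, 0.0165 for EIF2AK1, 0.0491 for EIF4E2, 0.00869 for EIF4A3, 0.0155 for EIF4H and 0.0282 for EIF2AK3. Total library scaling gave 0.000733 for EIF4A3, 0.00152 for EIF4H and 0.0109 for EIF2AK3, and a filter of 10 counts in 8 pigs gave 0.00984, 0.0112 and 0.0165. EIF2AK3 had 0.00191 in DESeq2 and 4.04e-05 with RLE scaling.

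With 1 pig left out, the sign turned in EIF4E3 (-0.16 to 0.0045), EIF2AK2 (-0.0031 to 0.19), EIF2AK1 (-0.12 to 0.015), EIF1AD (-0.0087 to 0.13), EIF4E2 (-0.054 to 0.055), EIF4A3 (-0.029 to 0.039), EIF4H (-0.021 to 0.036) and EIF2AK3 (-0.024 to 0.053). The paralog differences then ran from -0.63 to -0.36 for EEF1A1 to EEF1A2, from 0.11 to 0.26 for EIF4A1 to EIF4A2, from -0.35 to -0.21 for EIF4E to EIF4E2 and from -0.012 to 0.033 for EIF4G1 to EIF4G3. Without the 3 pigs of lowest slope the difference of EIF4E to EIF4E2 was -0.35, past the adjusted threshold. That choice of pigs was made after the values were seen, so it is not an independent test. The genes with the fewest counts, such as EIF5A2 with 39 to 116, carry the largest counting error.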

Other observations

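The naming rule leaves out factor genes that had no symbol in the deposited comparison. Of these, 11 could be named from the RefSeq annotation of the same assembly, 7 by gene ID and 4 by position, and 9 of them were among the genes tested. All 9 were higher in the LFC pigs by sign (52.1% of all genes), and none passed the adjusted threshold. A nominal p (before adjustment) up to 0.05 was reached by 2, against 4.41% of all genes in that direction. These 2 were EEF1E1, a scaffold of the multi-synthetase complex, with 27.6 ± 6.20 CPM (SD, n = 8) in LFC and 21.2 ± 5.32 CPM (SD, n = 8) in HFC, and the eIF3 subunit EIF3M, with 77.2 ± 8.28 CPM (SD, n = 8) and 66.5 ± 9.61 CPM (SD, n = 8). Their log2 fold changes were -0.38 (SE 0.16) and -0.22 (SE 0.10), and their adjusted p-values 0.421 and 0.429 (Benjamini-Hochberg, edgeR).

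EIF5A, the common form beside EIF5A2, had 289 ± 31.3 CPM (SD, n = 8) in LFC and 283 ± 26.1 CPM (SD, n = 8) in HFC, log2 fold change -0.03 (SE 0.09), where EIF5A2 had -0.56. The difference between these log2 fold changes was not tested. The eIF2 subunit EIF2S3 had -0.15, the scaffold EIF4G2 -0.14, the ribosome anti-association factor EIF6 -0.20 and the eEF2 methyltransferase EEF2KMT -0.28. EIF4E1B had 50 counts over the 16 pigs and EIF1AY had 0, and neither was tested.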
